A study of Mus musculus with 4 samples.

Results

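Cytosolic ribosomal proteins build the large and the small subunit of the ribosome. The mRNAs of these proteins were followed in ovarian RNA of Hdac3cKO mice and of Hdac3flox/flox mice, with 2 libraries per genotype. The members were taken by symbol, as every gene named Rpl or Rps followed by a digit together with Rplp0, Rplp1, Rplp2 and Rpsa, without pseudogene names ending in -ps and without the S6 kinases and Rps19bp1. This gave 90 of the 28611 rows of the expression table, 54 of the large subunit and 36 of the small subunit. Of these, 77 are the core ribosomal protein genes, 7 are paralogs (Rpl3l, Rpl7l1, Rpl10l, Rpl22l1, Rpl36al, Rpl39l and Rps27l), and 6 carry names of gene copies (Rpl6l, Rpl37rt, Rps3a2, Rps3a3, Rps4l and Rps27rt). GENCODE M21 annotated 5 of the 90 members as pseudogenes.

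Hdac3cKO females carried floxed Hdac3 alleles and the Foxl2-CreERT2 transgene, in which the Foxl2 gene drives a tamoxifen-dependent Cre recombinase in granulosa cells (GCs). Hdac3flox/flox females carried the floxed alleles without the Cre. Mice of both genotypes were on the C57BL/6 background and received tamoxifen once, by intraperitoneal injection of 20 mg per kg at the age of 18 days, and RNA was taken at 24 days. The labels name GCs as the cell type, whereas the extraction protocol names whole ovaries, and the deletion was described as incomplete. The design text gives 2 mice per genotype, but no label ties a library to a mouse, so the p-values measure the spread between these libraries, which may be technical.

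Hdac3, the targeted gene, had 19.4 and 19.2 RPKM (reads per kilobase of exon, scaled to the reads of the library) in the Hdac3cKO libraries, against 24.4 and 24.4 RPKM in the Hdac3flox/flox libraries (log2 fold change -0.34, adjusted p = 0.00935 in limma). The genotypes therefore did not overlap for the targeted gene. The library totals behind the values lay between 17621129 and 18452073 reads.

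Ribosomal protein mRNAs are among the most abundant mRNAs of growing cells, and granulosa cells of growing follicles divide and secrete steroids and proteins. Most of the proteins are needed in equal numbers in each ribosome. Many ribosomal protein mRNAs begin with a 5′ terminal oligopyrimidine tract (5′ TOP), a cytosine followed by an uninterrupted run of pyrimidines. Through this tract the mTOR pathway and the RNA-binding protein LARP1 control their translation and their stability as a group. Transcription of these genes is supported by MYC, and loss of single ribosomal proteins causes Diamond-Blackfan anaemia in humans.

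The 5′ TOP is the sequence feature that these mRNAs are known to share, so the start sites were examined first. RefSeq start regions (GRCm38.p6) were matched to 66 of the 90 members. A C followed by at least 4 C or T began exactly at the annotated start in 14 of these 66 members (21.2%), against 3.01% of 27025 genes, and within 5 bases of the start on either side in 30 members (45.5%), against 21.2% of all genes. Only the gene strand was searched. A missing run says only that it was not in this window. Start sequences of 5 members are given to show the tract in genes that the results below return to, from 15 bases before the annotated start to 14 bases after it, with capitals for the run of pyrimidines that begins at that start.
Rpl38 (chr11:114668565-114668594, plus strand): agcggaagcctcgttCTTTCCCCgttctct
Rps15a (chr7:118116133-118116162, minus strand): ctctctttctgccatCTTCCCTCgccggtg
Rps27 (chr3:90213634-90213663, minus strand): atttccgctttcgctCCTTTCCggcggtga
Rpl15 (chr14:18270972-18271001, minus strand): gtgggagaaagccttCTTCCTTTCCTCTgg
Rps7 (chr12:28635939-28635968, minus strand): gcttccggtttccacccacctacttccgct
The run at the start had 8 bases in Rpl38 and Rps15a, 7 in Rps27 and 13 in Rpl15, and Rps7 had none beginning at or within 5 bases of its annotated start. The median log2 fold change was -0.09 for the 14 members with the run exactly at the start and -0.09 for the 50 other tested members with a start sequence.

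Ribosomal protein mRNAs as a whole were slightly less abundant in Hdac3cKO ovaries. The 90 members took 3.38% and 3.40% of all reads in the Hdac3cKO libraries, against 3.61% and 3.63% in the Hdac3flox/flox libraries, a mean lower by 6.3% (percent change -6.3). The genotypes did not overlap, and the 2 libraries of each genotype were close to each other. Large subunit members took 1.98% and 1.99% of reads in Hdac3cKO, against 2.11% and 2.12% in Hdac3flox/flox, and small subunit members took 1.40% and 1.41% in Hdac3cKO, against 1.5% and 1.51% in Hdac3flox/flox. In bulk RNA, fewer cells of a type that is rich in these mRNAs and less of these mRNAs per cell cannot be told apart.

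Of the 90 members, 88 passed a filter that asked for 0.5 RPKM or more in 2 or more libraries. With limma on log2(RPKM + 0.1), a scale that understates changes of low genes, and an adjusted p under 0.05, no member rose, and 11 of 52 large subunit members (21.2%) and 8 of 36 small subunit members (22.2%) fell. Among all 15528 genes tested, 7.68% were called higher and 11.0% lower. The median log2 fold change was -0.09 for the large subunit and -0.10 for the small subunit, against -0.04 over all genes tested. The large subunit median was -0.04 in the 6 tested members for which at least 90% of 50-base stretches occur in no other annotated gene, and -0.05 with 0 of 19 called in members without a row named as their pseudogene. At an unadjusted p under 0.05, 52 members were lower and 3 higher, where 21.6% of all genes tested were lower and 14.6% higher. The 2 Hdac3cKO libraries were both below the 2 Hdac3flox/flox libraries for 38 large and 29 small subunit members, and both above them for 4 and 1, whereas such separation was found for 37.8% (lower) and 26.7% (higher) of all genes tested.

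**Figure D1:**
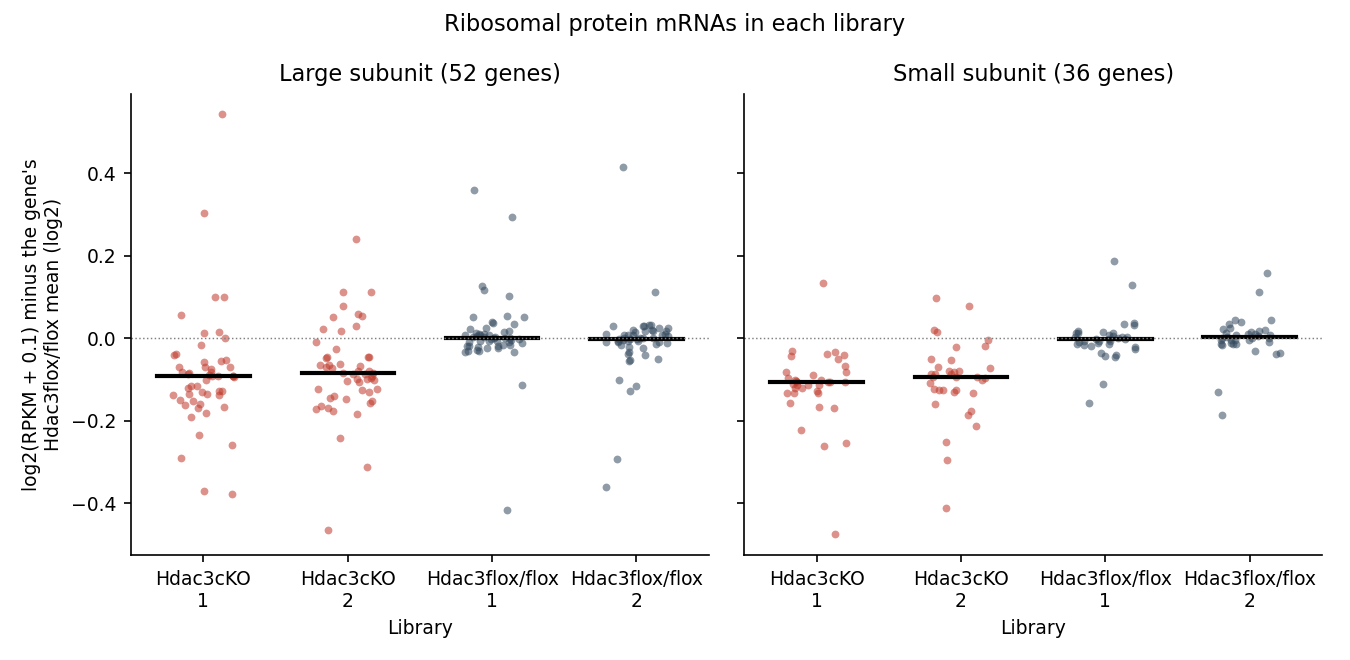
Level of each tested ribosomal protein mRNA in each library, as log2(RPKM + 0.1) minus the mean of that gene in the 2 Hdac3flox/flox libraries. Each point is 1 gene and black lines are medians, which were -0.09 and -0.09 (large subunit, 52 genes) and -0.11 and -0.09 (small subunit, 36 genes) in the 2 Hdac3cKO libraries.

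The call depended on how libraries were scaled. With median-of-ratios size factors, 4 members were lower (Rpl10, Rps4l, Rps7 and Rps20) and 1 was higher (Rpl15), the medians were -0.06 for both subunits, and 8.90% of all genes were lower and 9.83% higher. After a trend with GC content and length was removed, only Rps20 was lower and Rpl7l1, Rpl15 and Rps27l were higher, and the medians were -0.01 (large subunit) and -0.02 (small subunit) where that of all genes was 0.03. In that setting 7.93% of all genes were lower and 12.9% higher. Members below the median of all genes numbered 70 of 88 as reported and 66 with the trend removed. With median-of-ratios factors they numbered 70, but such factors shift all genes of a library alike, so this number could hardly change. With limma voom on the recovered reads, 48 members were lower and 1 higher, where 17.9% of all genes were lower and 12% higher. Leaving out any 1 of the 4 libraries left no member called, at medians between -0.09 and -0.11, while at most 0.341% of all genes were then called lower.

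**Figure D2:**
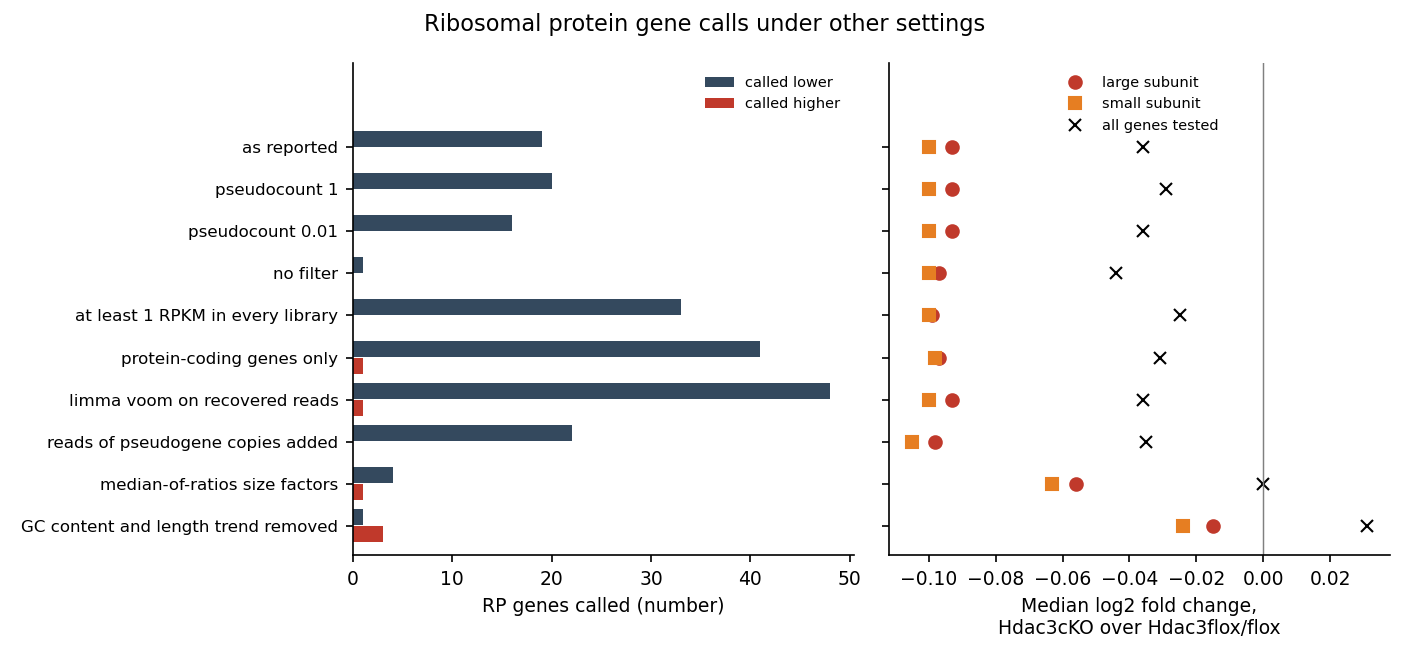
Number of ribosomal protein genes called lower or higher (left) and median log2 fold change, Hdac3cKO over Hdac3flox/flox (right), for the reported fit and other settings. Calls lower ranged from 1 to 48, and the median of each subunit lay below that of all genes tested in each setting drawn.

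The members were expressed over a wide range. The mean level over the 4 libraries of the 77 core genes lay between 0.640 and 1108 RPKM with a median of 202 RPKM, and 25 of them were at or above 300 RPKM. Only Rpl13a and Rpl24 were at or below 10 RPKM. Equal use of most of the proteins in the ribosome thus did not show as equal values, and 2 measured features limit a comparison of levels between members. The exon length by which reads were divided is the union of all annotated transcripts, between 383 bases for Rpl36 and 6270 bases for Rps15a. In addition, many members share sequence with other annotated genes, processed pseudogenes among them: the share of 50-base stretches of the longest transcript that occurs in no other annotated gene was 64.7% at the median of the core genes and 4.90% for Rpl35, which overlaps Wdr38 on the other strand. Rpl24, whose level was 0.631 and 0.606 RPKM in Hdac3cKO and 0.848 and 0.476 RPKM in Hdac3flox/flox, had 18.3% unique stretches and shared others with 10 genes. How reads that fit several places were treated was not given in the sources used here.

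Across the 77 core genes the log2 fold change had a Spearman correlation of 0.16 with exon length, -0.04 with GC content, 0.09 with the share of unique stretches and -0.06 with level, with points that share the same 4 libraries. The changes of the members lay close together. The middle 50% of the 88 members spanned 0.084 on the log2 scale, against 0.336 for all genes tested, most of which were at lower levels.

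The stalk of the large subunit recruits the elongation factors. Rplp0, which anchors it, had 818 and 802 RPKM in Hdac3cKO, against 876 and 897 RPKM in Hdac3flox/flox, and fell by 0.13 on the log2 scale (SE 0.03, adjusted p = 0.0400 in limma). Rplp1, an acidic stalk protein and the member with the highest level, had 1037 and 1081 RPKM in Hdac3cKO, against 1152 and 1163 RPKM in Hdac3flox/flox (log2 fold change -0.13, SE 0.03, adjusted p = 0.0552 in limma), so its libraries separated without a call. Rpl12, at the base of the stalk, had 117 and 116 RPKM in Hdac3cKO, against 123 and 126 RPKM in Hdac3flox/flox (adjusted p = 0.0739). Rplp2, the partner of Rplp1, had 177 and 179 RPKM in Hdac3cKO, against 178 and 173 RPKM in Hdac3flox/flox, and its libraries overlapped. Of the 4 stalk genes, 1 was therefore called lower (11.0% of all genes tested) and 3 had separate, lower libraries (37.8%).

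Rpl5 and Rpl11 form with 5S rRNA the particle that can bind MDM2 and stabilise p53. Rpl5 had 180 and 175 RPKM in Hdac3cKO, against 199 and 197 RPKM in Hdac3flox/flox, and fell (log2 fold change -0.16, SE 0.03, adjusted p = 0.0278 in limma). Only 6.20% of the 50-base stretches of Rpl5 were unique, and its main copy Gm15500 had 1274 and 1279 reads in Hdac3cKO, against 1327 and 1438 reads in Hdac3flox/flox. Rpl11 had 147 and 146 RPKM in Hdac3cKO, against 163 and 156 RPKM in Hdac3flox/flox (log2 fold change -0.12, adjusted p = 0.0702). Both genes had separate libraries in the same direction, and only Rpl5 passed the test.

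Among the proteins that line or surround the exit of the nascent chain, Rpl17 fell. It had 511 and 517 RPKM in Hdac3cKO, against 556 and 554 RPKM in Hdac3flox/flox (log2 fold change -0.11, SE 0.02, adjusted p = 0.0401 in limma). The largest fitted falls of the large subunit were at the exit too, in members with few reads. Rpl23a, a docking site for the signal recognition particle, had 32.4 and 30.4 RPKM in Hdac3cKO, against 51.3 and 34.2 RPKM in Hdac3flox/flox (log2 fold change -0.42, SE 0.20, adjusted p = 0.214), and Hdac3flox/flox replicate 1 alone stood high. In reads, Rpl23a had 506 and 453 in Hdac3cKO, against 796 and 531 in Hdac3flox/flox. Rpl35 had 13.7 and 14.4 RPKM in Hdac3cKO, against 19.5 and 16.3 RPKM in Hdac3flox/flox (log2 fold change -0.34, SE 0.09, adjusted p = 0.0717). Both share most of their sequence with other genes (22.4% and 4.90% unique stretches). Rpl39, a short protein of the tunnel wall, had 101 and 103 RPKM in Hdac3cKO, against 119 and 111 RPKM in Hdac3flox/flox (adjusted p = 0.0606). Rpl4, which reaches into the tunnel, had 756 and 740 RPKM in Hdac3cKO, against 784 and 790 RPKM in Hdac3flox/flox (adjusted p = 0.117), and Rpl19 had 113 and 120 RPKM in Hdac3cKO, against 131 and 122 RPKM in Hdac3flox/flox (adjusted p = 0.198). All 6 genes of this list had separate, lower libraries in Hdac3cKO (37.8% of all genes tested), 1 was called lower (11.0% of all genes tested), and the median log2 fold change was -0.14.

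Other large subunit genes that fell included Rpl36, Rpl3, Rpl10a, Rpl10, Rpl21, Rpl22 and Rpl9. Rpl36 (chromosome 17, 56613416 to 56614243, GRCm38) had the largest called change of the subunit, with 401 and 436 RPKM in Hdac3cKO, against 491 and 489 RPKM in Hdac3flox/flox (log2 fold change -0.23, SE 0.05, adjusted p = 0.0376 in limma). Rpl3, which reaches the peptidyl transferase centre, had 334 and 337 RPKM in Hdac3cKO, against 368 and 382 RPKM in Hdac3flox/flox (log2 fold change -0.16, SE 0.03, adjusted p = 0.0324). Rpl10, an X-linked gene whose protein joins late in the assembly of the subunit, had 353 and 345 RPKM in Hdac3cKO, against 387 and 391 RPKM in Hdac3flox/flox (log2 fold change -0.15, SE 0.03, adjusted p = 0.0255). In each case both Hdac3cKO libraries lay below both Hdac3flox/flox libraries. Rpl10a had 240 and 244 RPKM in Hdac3cKO, against 264 and 276 RPKM in Hdac3flox/flox (adjusted p = 0.0393). Rpl21 had 32.5 and 31.3 RPKM in Hdac3cKO, against 35.5 and 35.4 RPKM in Hdac3flox/flox (adjusted p = 0.0449). Rpl22, which is known for its role in the development of T cells in mice, had 70.4 and 73.2 RPKM in Hdac3cKO, against 79.2 and 80.4 RPKM in Hdac3flox/flox (adjusted p = 0.0403). These were falls of between 0.13 and 0.23 on the log2 scale, and none of these genes was called after the trend with GC content and length was removed.

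Rpl8, which lies near the peptidyl transferase centre and had one of the highest levels, moved little. It had 975 and 970 RPKM in Hdac3cKO, against 987 and 1014 RPKM in Hdac3flox/flox (log2 fold change -0.04, SE 0.03, adjusted p = 0.330 in limma). Rpl38, shown above for its 5′ TOP and known from skeletal defects of mice that lack 1 copy, had 134 and 143 RPKM in Hdac3cKO, against 166 and 155 RPKM in Hdac3flox/flox (log2 fold change -0.21, adjusted p = 0.0578). Its libraries separated, but its change did not pass the test.

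In the small subunit, 8 genes fell, and Rps7 had the smallest adjusted p of all members. Rps7 (chromosome 12, 28630854 to 28635953) had 226 and 225 RPKM in Hdac3cKO, against 253 and 254 RPKM in Hdac3flox/flox (log2 fold change -0.17, SE 0.02, adjusted p = 0.0164 in limma). Rps20 (chromosome 4, 3831334 to 3835665) had 84.3 and 81.6 RPKM in Hdac3cKO, against 95.4 and 93.8 RPKM in Hdac3flox/flox (log2 fold change -0.19, SE 0.03, adjusted p = 0.0238). Rps28 had 63.1 and 67.4 RPKM in Hdac3cKO, against 76.0 and 74.5 RPKM in Hdac3flox/flox (log2 fold change -0.21, SE 0.04, adjusted p = 0.0374). The genotypes separated clearly in these 3 genes, 2 of which, Rps20 and Rps28, had over 90% unique stretches (92.4% and 94.0%). Rps4l had the largest called change (log2 fold change -0.24, SE 0.03, adjusted p = 0.0170), with 27.6 and 27.1 RPKM in Hdac3cKO, against 32.03 and 32.5 RPKM in Hdac3flox/flox. Rps4l is annotated as a transcribed processed pseudogene. Rps14, whose human gene is lost in the 5q- syndrome, had 342 and 344 RPKM in Hdac3cKO, against 368 and 366 RPKM in Hdac3flox/flox (log2 fold change -0.10, SE 0.02, adjusted p = 0.0487), and 100% of its stretches were unique.

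Along the path of the mRNA through the small subunit, 2 of 6 listed genes fell, where 11.0% of all genes tested did. Rpsa, near the mRNA exit and also known as the laminin receptor, had 304 and 300 RPKM in Hdac3cKO, against 329 and 329 RPKM in Hdac3flox/flox (log2 fold change -0.12, SE 0.02, adjusted p = 0.0337 in limma). Rps15, whose tail reaches the decoding site, had 683 and 675 RPKM in Hdac3cKO, against 727 and 744 RPKM in Hdac3flox/flox (log2 fold change -0.12, SE 0.03, adjusted p = 0.0472). Rps6, the substrate of the S6 kinases, had 458 and 461 RPKM in Hdac3cKO, against 488 and 497 RPKM in Hdac3flox/flox (log2 fold change -0.10, adjusted p = 0.0584). Rps6 separated between genotypes and did not pass the test. Rps23, at the decoding centre, had 344 and 349 RPKM in Hdac3cKO, against 373 and 368 RPKM in Hdac3flox/flox (adjusted p = 0.0589). Rps3, at the mRNA entry, had 166 and 169 RPKM in Hdac3cKO, against 170 and 173 RPKM in Hdac3flox/flox (adjusted p = 0.417), and Rps2, also at the entry, had 514 and 523 RPKM in Hdac3cKO, against 527 and 523 RPKM in Hdac3flox/flox (adjusted p = 0.647). Of these 6, only Rps2 had overlapping libraries, and the other 5 separated downwards, as did 37.8% of all genes tested.

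Other abundant small subunit members gave values of the same size. Rps3a1, the member of the subunit with the highest level, had 889 and 885 RPKM in Hdac3cKO, against 937 and 963 RPKM in Hdac3flox/flox (log2 fold change -0.10, adjusted p = 0.0695 in limma). Rps4x had 468 and 460 RPKM in Hdac3cKO, against 486 and 517 RPKM in Hdac3flox/flox (log2 fold change -0.11, adjusted p = 0.108). Rps27a, which is made as a fusion with ubiquitin, had 210 and 214 RPKM in Hdac3cKO, against 234 and 224 RPKM in Hdac3flox/flox (log2 fold change -0.11, adjusted p = 0.0857). In all 3 the genotypes separated without a call. The spread between libraries was wide in Rps21 and Rps29. Rps29 had 139 and 161 RPKM in Hdac3cKO, against 183 and 153 RPKM in Hdac3flox/flox (adjusted p = 0.390), and Rps21 had 111 and 127 RPKM in Hdac3cKO, against 108 and 134 RPKM in Hdac3flox/flox (adjusted p = 0.939), so that both overlapped.

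**Figure D3:**
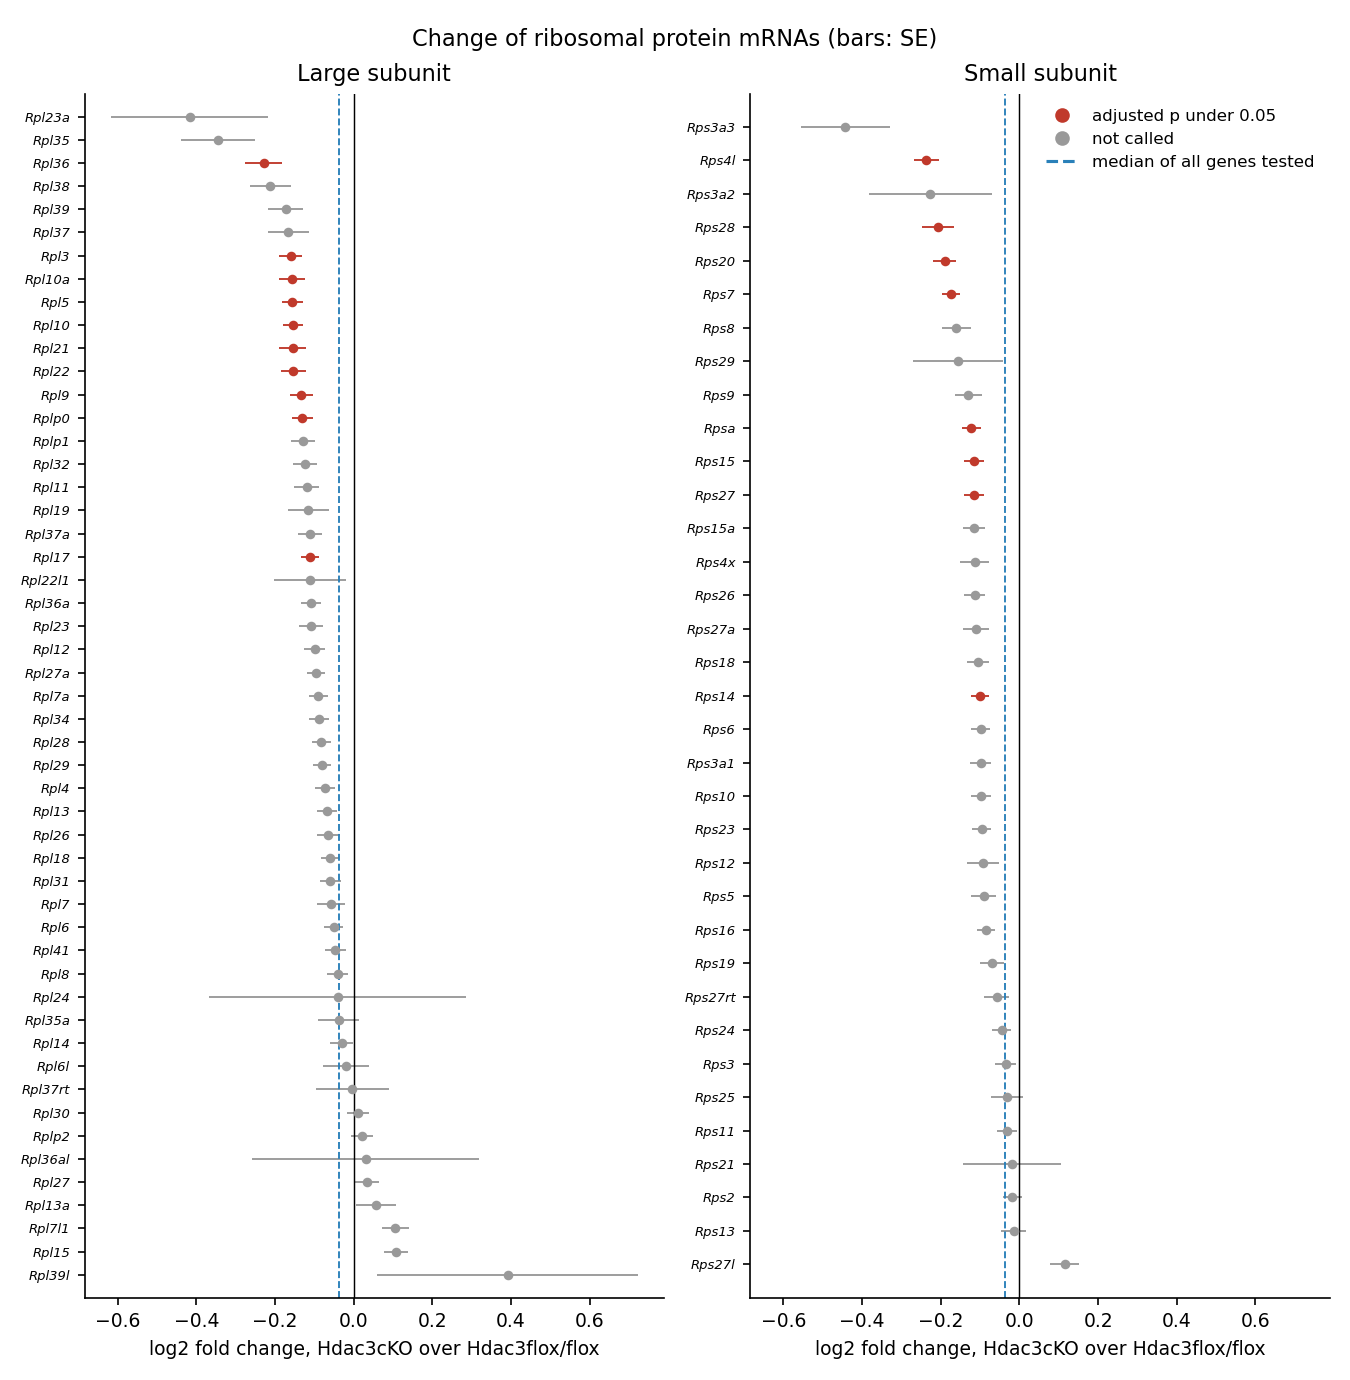
Log2 fold change of 51 large and 35 small subunit mRNAs, Hdac3cKO over Hdac3flox/flox, from the lowest to the highest in each subunit, with the SE of the limma fit as bars. Red points are the 10 large and 8 small subunit genes drawn that had an adjusted p under 0.05, and the dashed line is the median of all genes tested (-0.04).

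Genes mutated in human Diamond-Blackfan anaemia, a failure of red cell production, were listed apart. Of 17 members, 5 fell (Rpl5, Rps7, Rps20, Rps27 and Rps28), none rose, and the median log2 fold change was -0.10. This was 29.4%, where 21.6% of all tested members and 11.0% of all genes tested were lower. Rps27, shown above for its 5′ TOP, had 133 and 134 RPKM in Hdac3cKO, against 147 and 143 RPKM in Hdac3flox/flox (log2 fold change -0.11, SE 0.03, adjusted p = 0.0489 in limma). Rps19, the gene most often mutated in that disease, had 65.5 and 65.4 RPKM in Hdac3cKO, against 67.4 and 69.9 RPKM in Hdac3flox/flox (log2 fold change -0.07, adjusted p = 0.188), and 97.3% of its stretches were unique. Its libraries separated without a call. The adjusted p of Rps10, Rps24, Rps26, Rpl26, Rpl27, Rpl31 and Rpl35a lay between 0.0554 (Rps26) and 0.649 (Rpl35a).

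None of the paralogs was called. Of the 7, Rpl3l and Rpl10l did not pass the filter, and the median log2 fold change of the other 5 was 0.11. Rps27l, a paralog of Rps27 that p53 can induce in human cells, had 74.2 and 72.4 RPKM in Hdac3cKO, against 69.5 and 65.9 RPKM in Hdac3flox/flox (log2 fold change 0.12, SE 0.04, adjusted p = 0.103 in limma). Rpl7l1, a paralog of Rpl7, had 51.1 and 51.6 RPKM in Hdac3cKO, against 46.6 and 48.8 RPKM in Hdac3flox/flox (log2 fold change 0.11, SE 0.03, adjusted p = 0.105). Both had separate, higher values in Hdac3cKO, and both were called higher only where the trend with GC content and length was removed. Of their parents, Rps27 fell, as given above, and Rpl7 had 287 and 291 RPKM in Hdac3cKO, against 309 and 292 RPKM in Hdac3flox/flox (adjusted p = 0.312). All 7 parents of these paralogs (Rpl3, Rpl7, Rpl10, Rpl22, Rpl36a, Rpl39 and Rps27) had both Hdac3cKO libraries below both Hdac3flox/flox libraries, and 4 of them fell (Rpl3, Rpl10, Rpl22 and Rps27). Over all genes tested, 37.8% separated in this direction and 11.0% were called lower. The difference between a paralog and its parent was not tested. Rpl13a, a core gene at a low level here and part of the interferon-gamma response in human cells, had 6.56 and 6.58 RPKM in Hdac3cKO, against 6.36 and 6.26 RPKM in Hdac3flox/flox (adjusted p = 0.471).

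The remaining paralogs were at low levels. Rpl22l1 had 7.71 and 7.99 RPKM in Hdac3cKO, against 9.2 and 7.81 RPKM in Hdac3flox/flox (adjusted p = 0.447 in limma). Rpl36al had 0.841 and 0.545 RPKM in Hdac3cKO, against 0.606 and 0.725 RPKM in Hdac3flox/flox, and Rpl39l, known from the testis, had 1.37 and 1.09 RPKM in Hdac3cKO, against 0.657 and 1.25 RPKM in Hdac3flox/flox (log2 fold change 0.39, SE 0.33, adjusted p = 0.453). The libraries of all 3 overlapped. Rpl10l, which stands in for Rpl10 in mouse spermatocytes, had 2 and 0 reads in Hdac3cKO, against 7 and 3 reads in Hdac3flox/flox, and Rpl3l, known from striated muscle, had 0 and 2 reads in Hdac3cKO, against 2 and 2 reads in Hdac3flox/flox. At this depth no difference could be read from either.

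Rpl15 was the core gene with the highest positive change, and this depended on how its copies were counted. Rpl15 (chromosome 14, 18267823 to 18271391) had 249 and 251 RPKM in Hdac3cKO, against 227 and 237 RPKM in Hdac3flox/flox (log2 fold change 0.11, SE 0.03, adjusted p = 0.0783 in limma). The processed pseudogene Gm10020 (chromosome 15, 52477617 to 52478228), which shares sequence with Rpl15, had 3 and 5 reads in Hdac3cKO, against 1074 and 971 reads in Hdac3flox/flox. Rpl15-ps2 (chromosome 9, 72060937 to 72061549) had 3 and 4 reads in Hdac3cKO, against 198 and 155 reads in Hdac3flox/flox. Reads assigned to these copies were thus nearly absent from both Hdac3cKO libraries, while another copy, Gm4294, had 111 and 117 reads in Hdac3cKO, against 112 and 127 reads in Hdac3flox/flox. Rpl15 and its 5 copies together had 624 and 630 CPM (counts scaled to the library total) in Hdac3cKO, against 640 and 657 CPM in Hdac3flox/flox. With the reads of copies added, the log2 fold change of Rpl15 was -0.05 (SE 0.03, adjusted p = 0.249).

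**Figure D4:**
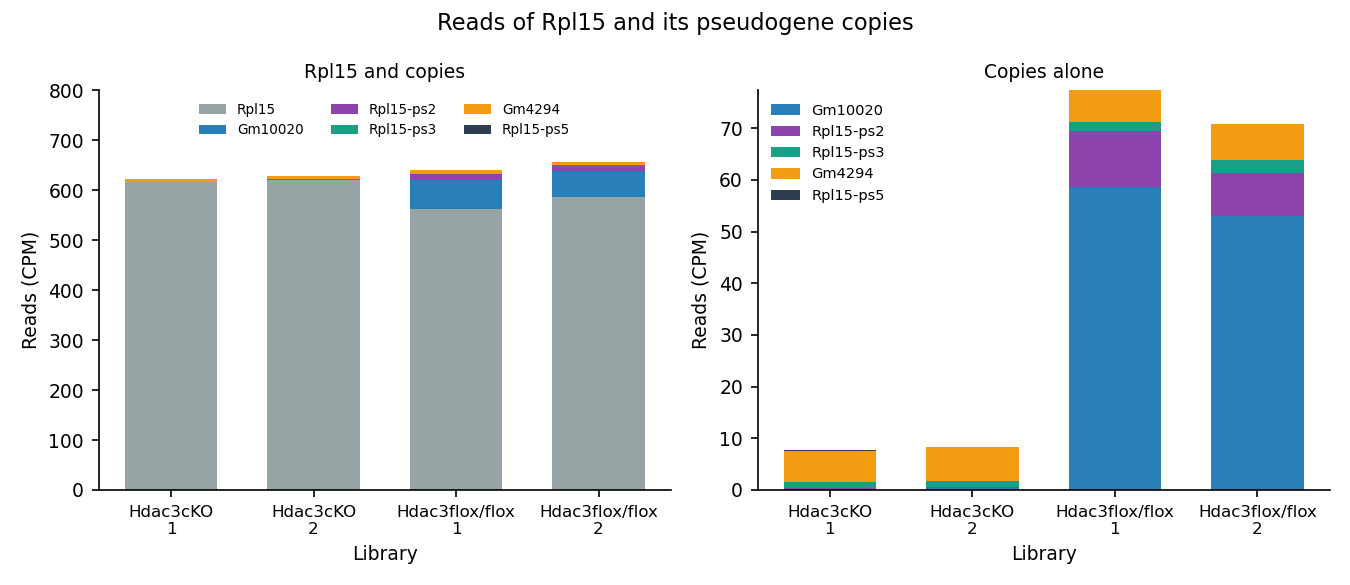
Reads in CPM (counts scaled to the library total) assigned to Rpl15 and to 5 processed pseudogenes that share sequence with it (left, stacked) and to the 5 copies alone (right), in each library. Gm10020 had 0.163 and 0.284 CPM in Hdac3cKO, against 58.7 and 52.9 CPM in Hdac3flox/flox.

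The addition of copies moved 3 of the 88 members by 0.1 or more on the log2 scale. These were Rpl15, Rpl24 (to -0.38, against -0.04 as reported) and Rpl23a (to -0.27, against -0.42 as reported), and the other members moved by at most 0.088. When reads of 254 pseudogene copies were added to the 64 members that have any, 22 members were lower and none higher. Of these 22, 18 were among the 19 of the reported fit. In that setting 11.2% of all genes were lower and 7.78% higher. The 155 rows named as ribosomal protein pseudogenes took 0.0880% and 0.0888% of reads in Hdac3cKO, against 0.0955% and 0.0963% in Hdac3flox/flox, and were thus lower by a similar proportion as the members (percent change -7.8). At least 90% of stretches were unique in 8 large subunit members, of which 6 were tested and 1 was lower, and in 8 small subunit members, all tested, of which 3 were lower, where 11.0% of all genes tested were lower. The median log2 fold change of these tested members was -0.04 in the large subunit, as over all genes, and -0.10 in the small subunit.

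Fau and Rack1 encode ribosomal proteins, but their symbols do not follow the rule. Fau, which encodes a fusion with Rps30, had 313 and 307 RPKM in Hdac3cKO, against 349 and 351 RPKM in Hdac3flox/flox (log2 fold change -0.17, SE 0.02, adjusted p = 0.0188 in limma). Rack1, a scaffold on the small subunit, had 210 and 200 RPKM in Hdac3cKO, against 222 and 219 RPKM in Hdac3flox/flox (adjusted p = 0.0986). Fau thus fell, and Rack1 was not called.

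The list of other RNAs known to carry a 5′ TOP held 23. Of these, 17 were annotated as protein-coding, and the others were the host genes Gas5, Snhg1, Snhg5, Snhg6, Snhg8 and Snhg12. Of the 23 RNAs, 8 fell, none rose and 15 did not pass the test, where 11.0% of all genes were lower. Their median log2 fold change was -0.09. With median-of-ratios factors 5 were lower at a median of -0.05, where 8.9% of all genes were lower. With the trend removed 3 were lower and 1 higher at a median of -0.03, where 7.93% of all genes were lower and 12.9% higher. Eif4b, an initiation factor that stimulates the helicase eIF4A, had 135 and 136 RPKM in Hdac3cKO, against 158 and 165 RPKM in Hdac3flox/flox (log2 fold change -0.25, adjusted p = 0.0153 in limma). Vim, a cytoskeletal protein of stromal and other mesenchymal cells, had 111 and 112 RPKM in Hdac3cKO, against 137 and 130 RPKM in Hdac3flox/flox (log2 fold change -0.26, adjusted p = 0.0155). Eif4b and Vim fell by more than any core ribosomal protein gene that was called. Snhg8, a small nucleolar RNA host gene, had 10.9 and 10.8 RPKM in Hdac3cKO, against 13.4 and 13.6 RPKM in Hdac3flox/flox (adjusted p = 0.0158). Eef1b2, an elongation factor subunit, had 128 and 129 RPKM in Hdac3cKO, against 143 and 142 RPKM in Hdac3flox/flox (adjusted p = 0.0242). None of the libraries of these 4 genes overlapped between genotypes. The genes were named for the smallest p of the list, so their separation adds no further support.

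Genes of ribosome assembly and the nucleolus moved the other way. Of 38 tested, 19 rose (7.68% of all genes tested), none fell, and the median log2 fold change was 0.21, against -0.04 over all genes. Nop56, a core protein of box C/D snoRNPs, had 38.9 and 39.5 RPKM in Hdac3cKO, against 32.6 and 32.4 RPKM in Hdac3flox/flox (log2 fold change 0.27, adjusted p = 0.0115 in limma). Nop2, an rRNA methyltransferase, had 24.2 and 24.8 RPKM in Hdac3cKO, against 19.8 and 19.4 RPKM in Hdac3flox/flox (log2 fold change 0.32, adjusted p = 0.0115). Gnl3, a nucleolar GTPase, had 42.1 and 43.7 RPKM in Hdac3cKO, against 34.0 and 35.0 RPKM in Hdac3flox/flox (log2 fold change 0.31, adjusted p = 0.0127). All 3 of these genes act in the nucleolus. Nolc1, a nucleolar chaperone of snoRNPs, had 32.2 and 30.2 RPKM in Hdac3cKO, against 23.5 and 24.1 RPKM in Hdac3flox/flox (log2 fold change 0.39, adjusted p = 0.0128). In each of these 4 genes both Hdac3cKO libraries lay above both Hdac3flox/flox libraries. They too were named for the smallest p of their list, so this separation adds no further support. The median of the 38 genes stayed positive with median-of-ratios factors (0.25) and with the trend removed (0.27).

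Of RNA polymerase I genes, which transcribe the rRNA precursor, none of 14 was called (median 0.04). With the trend removed 2 were higher (median 0.11), where 12.9% of all genes were. By the smallest p, Polr1d had 29.1 and 26.9 RPKM in Hdac3cKO, against 32.02 and 34.0 RPKM in Hdac3flox/flox (adjusted p = 0.0542 in limma). Mitochondrial ribosomal protein genes, which serve the separate ribosome of that organelle, had a median of 0.03, with 3 of 79 higher and none lower. These 79 were taken by symbol and, unlike the members, included rows with pseudogene names (Mrpl23-ps1 and Mrpl48-ps). Over all genes tested, 7.68% were higher and 11.0% lower. With median-of-ratios factors 7 were higher (median 0.06), where 9.83% of all genes were. With the trend removed 13 were higher (median 0.09), where 12.9% of all genes were. Mrpl38, the gene of that list with the smallest p, had 28.5 and 27.0 RPKM in Hdac3cKO, against 23.3 and 23.1 RPKM in Hdac3flox/flox (log2 fold change 0.26, adjusted p = 0.0228).

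Of 36 genes listed with the initiation factors, Eif5a among them, 11 were higher and 3 lower (median 0.06, and 0.13 with the trend removed). Over all genes tested, 7.68% were higher and 11.0% lower. Eif3b, a scaffold subunit of eIF3, had 89.96 and 92.2 RPKM in Hdac3cKO, against 77.9 and 79.4 RPKM in Hdac3flox/flox (adjusted p = 0.0174 in limma), and Eif5 had 58.7 and 58.7 RPKM in Hdac3cKO, against 50.5 and 51.5 RPKM in Hdac3flox/flox (adjusted p = 0.0177). A list of 10 genes held elongation and release factors and genes of related function. Of these, 4 rose (Eef1e1, Etf1, Gspt1 and Abce1) and 2 fell (Eef1b2 and Eef2), at a median of -0.04. With the trend removed 4 were higher and 0 lower (median 0.03). In that setting 12.9% of all genes were higher and 7.93% lower. Eef2, which moves the ribosome along the mRNA and has a 5′ TOP itself, had 904 and 868 RPKM in Hdac3cKO, against 995 and 1052 RPKM in Hdac3flox/flox (log2 fold change -0.21, adjusted p = 0.0351). Etf1, the release factor, had 64.7 and 63.3 RPKM in Hdac3cKO, against 55.6 and 56.3 RPKM in Hdac3flox/flox (log2 fold change 0.19, adjusted p = 0.0208). The lists of initiation and elongation factors share genes with that of 5′ TOP RNAs.

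Among 19 regulators of ribosome production, 3 fell and 1 rose, where 11.0% of all genes tested were lower and 7.68% higher. With the trend removed 3 were lower and 3 higher, where 7.93% of all genes were lower and 12.9% higher. Myc, a transcription factor that activates ribosomal protein genes, had 14.8 and 13.97 RPKM in Hdac3cKO, against 30.3 and 37.9 RPKM in Hdac3flox/flox (log2 fold change -1.23, SE 0.12, adjusted p = 0.00918 in limma). Pdcd4, an inhibitor of eIF4A, had 26.6 and 25.5 RPKM in Hdac3cKO, against 35.7 and 36.5 RPKM in Hdac3flox/flox (log2 fold change -0.47, adjusted p = 0.00736). Maf1, a repressor of RNA polymerase III, had 38.8 and 40.8 RPKM in Hdac3cKO, against 48.2 and 47.5 RPKM in Hdac3flox/flox (log2 fold change -0.27, adjusted p = 0.0187), and Larp4 had 19.2 and 19.6 RPKM in Hdac3cKO, against 16.6 and 15.5 RPKM in Hdac3flox/flox (log2 fold change 0.27, adjusted p = 0.0277). The fitted fall of Myc was larger than that of any tested ribosomal protein gene, and a link between them was not tested. The related Mycn had 22.7 and 22.8 RPKM in Hdac3cKO, against 20.3 and 21.1 RPKM in Hdac3flox/flox (log2 fold change 0.14, adjusted p = 0.0745). Mycl had 33.2 and 32.8 RPKM in Hdac3cKO, against 35.4 and 45.0 RPKM in Hdac3flox/flox (adjusted p = 0.180). Neither was called.

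**Figure D5:**
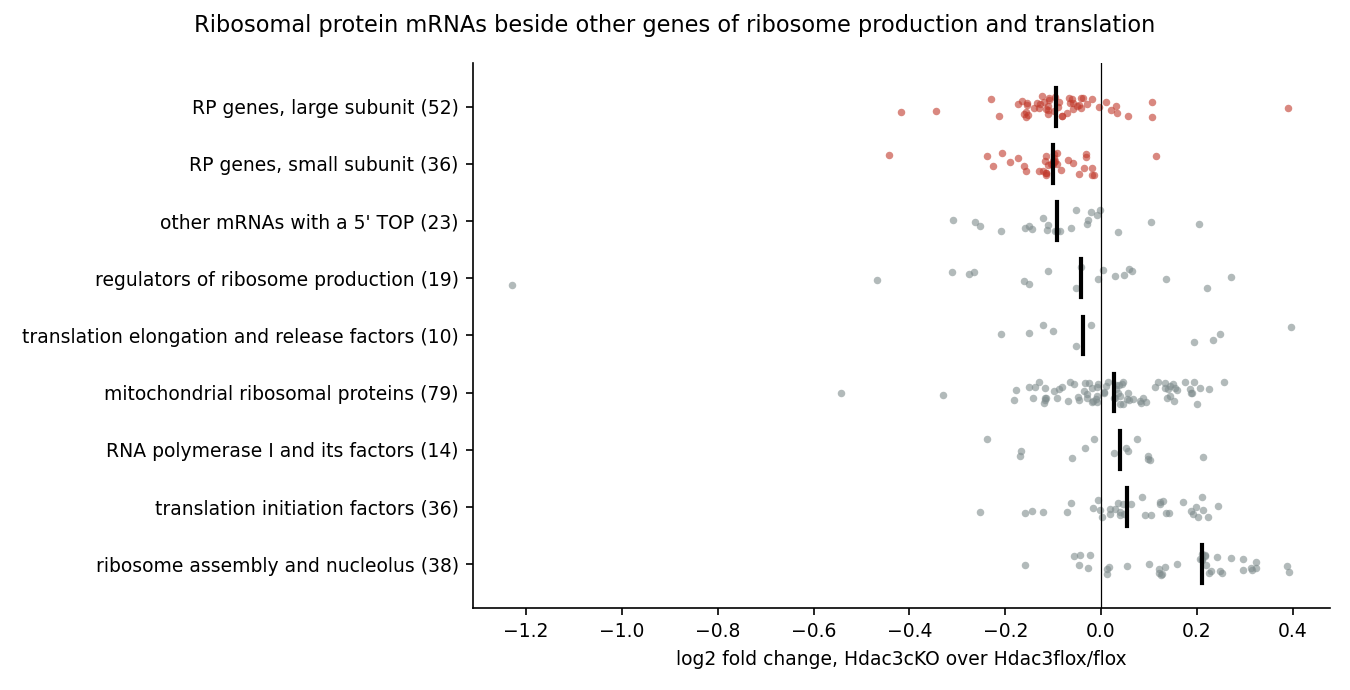
Log2 fold change, Hdac3cKO over Hdac3flox/flox, of each tested gene (points) with the median (black line) for ribosomal protein (RP) genes and for other lists, with the number of genes in parentheses. The medians were -0.09 (large subunit), -0.10 (small subunit), -0.09 (other 5′ TOP mRNAs and host genes) and 0.21 (ribosome assembly and nucleolus).

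Markers of several ovarian cell types moved between the genotypes as well. Over all genes tested, 7.68% were called higher and 11.0% lower. Of 6 endothelial markers 5 were lower, with summed levels of 61.0 to 62.1 RPKM in Hdac3cKO and 85.4 to 86.6 RPKM in Hdac3flox/flox. Of 5 stromal markers 3 were lower (289 to 298 RPKM in Hdac3cKO and 312 RPKM in both libraries of Hdac3flox/flox). The other 2 were not called and had separate, higher libraries in Hdac3cKO (26.7% of all genes tested). Col1a1, most of the stromal sum, had 214 and 218 RPKM in Hdac3cKO, against 206 and 208 RPKM in Hdac3flox/flox. Dcn had 28.8 and 30.5 RPKM in Hdac3cKO, against 27.9 and 28.4 RPKM in Hdac3flox/flox. Of 3 tested smooth muscle markers 2 were lower (294 to 344 RPKM in Hdac3cKO and 419 to 427 RPKM in Hdac3flox/flox). Of 5 theca markers 3 were lower and 1 higher (833 to 923 RPKM in Hdac3cKO and 1012 to 1106 RPKM in Hdac3flox/flox). Of 10 granulosa markers 5 were higher and 2, Foxl2 and Fshr, lower (8811 to 9224 RPKM in Hdac3cKO and 7617 to 8038 RPKM in Hdac3flox/flox). Most of these sums came from Inha, with 6094 and 5776 RPKM in Hdac3cKO, against 5280 and 4946 RPKM in Hdac3flox/flox. All 7 proliferation genes were higher (361 to 364 RPKM in Hdac3cKO and 267 to 273 RPKM in Hdac3flox/flox). One of 8 oocyte markers, Zp2, was higher (209 to 234 RPKM in Hdac3cKO and 191 to 194 RPKM in Hdac3flox/flox). None of 5 erythroid, 4 surface epithelium and 3 tested leukocyte markers was called. No marker was at 0 in every library, and the leukocyte markers Ptprc and Cd3e were at or below 0.175 and 0.0134 RPKM. Markers of endothelium, stroma and theca are at odds with a pure GC sample, and the part of cell composition in the values of the ribosomal protein genes was not tested.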

How the data were processed

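RNA of Hdac3cKO and Hdac3flox/flox mice was sequenced as 4 libraries. The authors deposited RPKM values per gene, from Illumina TruSeq libraries; the submitters' notes name Bowtie 0.12.2 and mm8, with the counting tool not given in the sources used here. Of 26767 rows matched to GENCODE M21 (GRCm38) by symbol, 91.0% gave whole reads when multiplied by exon length and library total (relative tolerance 1e-06), so GRCm38 positions are given. RPKM is not corrected for composition between libraries. Reads were recovered this way, or as the smallest whole numbers of a row, for 79 and 11 members; totals per library ranged from 17621129 to 18452073 reads.

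Log2(RPKM + 0.1) was fitted with limma 3.58.1 (R 4.3.3; trend on the level, only genotype in the model, residual degrees of freedom 2). The 15528 genes at 0.5 RPKM or more in 2 or more libraries were tested, with two-sided tests and Benjamini-Hochberg adjustment over all of them. The fit was tested on simulated data. Other pseudocounts, filters, scalings, a replicate block, limma voom and leaving out each library were tried. The members, gene lists and rules were chosen with earlier results of these data known. Genes were named by fixed rules: the 5 highest levels and up to 6 largest called changes in each direction per subunit, role lists, members below the filter, and up to 4 genes with the smallest p of each other list. Other genes (Rps14, Rpl38, Rps21, Eef1e1, Eef2, Eif5a, Mycn, Mycl, Inha, Col1a1, Dcn and the copies of Rps7 and Rpl15) were named after their values were seen. Sequence shared between genes was counted in 50-base stretches of GENCODE transcripts with Python 3.11.15. No protein sequence table was used here. A few genes are not reported here by name.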

Additional observations from a re-analysis of the deposited data

How the results depend on the processing

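The number of ribosomal protein genes called depended on the scaling, on the filter and on each library, while the medians of both subunits stayed below 0 in each setting. As reported, 11 large and 8 small subunit genes were lower and none higher, at medians of -0.093 and -0.100, where 11.0% of all genes were lower. Without a filter 0 large and 1 small subunit genes were lower (all genes, 1.9%), and with at least 1 RPKM in every library 18 and 15 (all genes, 15.9%). With limma voom on recovered reads 26 and 22 were lower (all genes, 17.9%) and 1 large subunit gene higher. With protein-coding genes only, chosen after seeing the data, 23 and 18 were lower (all genes, 18.1%) and 1 large subunit gene higher. With a pseudocount of 0.01, 5 small subunit genes were lower (all genes, 10.6%). With median-of-ratios size factors 1 and 3 were lower (all genes, 8.9%) and 1 large subunit gene higher, at medians of -0.056 and -0.063 (-0.058 and -0.065 with the same calls when ribosomal protein genes were left out of the factors). With the GC content and length trend removed, 0 and 1 were lower (all genes, 7.93%) and 2 and 1 higher, at medians of -0.015 and -0.024. With a replicate block 5 and 4 were lower (all genes, 8.06%), and with the replicate block and the trend removed 0 and 0 were lower (all genes, 6.44%) and 2 and 1 higher, at medians of -0.015 and -0.024. Same-numbered libraries deviated together by a correlation of only 0.076, so the numbers were not taken to pair the samples. Leaving out 1 library left 0 genes called in each subunit (at most 0.341% of all genes lower), at medians between -0.098 and -0.085 (large subunit) and between -0.106 and -0.092 (small subunit); a lone library is then assumed to vary like the other genotype, with 1 residual degree of freedom. Without members that have a row named as their pseudogene, 0 of 19 large and 5 of 16 small subunit genes were lower, with a large subunit median of -0.047. In sets chosen after seeing the data, the large subunit median was -0.103 for core genes and -0.039 for members with at least 90% unique stretches, of which 1 large and 3 small subunit genes were lower. Apart from what the construction of a setting shows (fewer genes tested, fewer samples), the cause of these differences was not tested.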

Other observations

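Length classes of the 77 core genes, by the union of their exons, gave similar values. The median log2 fold change was -0.11 for the 26 shortest (383 to 1544 bases, 4 called lower), -0.10 for the 25 in the middle (1586 to 2431 bases, 7 called lower) and -0.09 for the 26 longest (2451 to 6270 bases, 7 called lower).

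The 6 members named as gene copies had a median log2 fold change of -0.14. Rps3a3 had the largest fitted fall of the members, with 2.11 and 2.21 RPKM in Hdac3cKO, against 2.75 and 3.22 RPKM in Hdac3flox/flox (log2 fold change -0.44, SE 0.11, adjusted p = 0.0625 in limma). Rps3a2 had 2.53 and 2.29 RPKM in Hdac3cKO, against 3.24 and 2.48 RPKM in Hdac3flox/flox (adjusted p = 0.363), and shared all but 9.80% of its stretches with other genes. Neither passed the test.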
